A study of Mus musculus with 11 samples.

Results

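The Notch receptors, ligands and target genes of sorted retinal endothelial cells are described here by 10 genes, out of 55359 genes in the count tables. They were fixed by name, with no threshold on their values, and are the receptors Notch1 and Notch4, the ligands Dll4, Jag1 and Jag2, the glycosyltransferase Lfng, and the target genes Hes1, Hey1, Hey2 and Nrarp. All 10 were found once in the tables and all 10 passed the filter on low counts.

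The samples came from C57BL/6 mice in the oxygen-induced retinopathy (OIR) model, in which pups spend days in high oxygen, lose part of the retinal capillary bed, and grow disordered new vessels after return to room air. At postnatal day 12 (P12) mice received an intravitreal injection of 0.5 µL of oncostatin M (OSM, a cytokine of the interleukin-6 family) at 100 ng/µL, or 0.5 µL of phosphate-buffered saline (PBS). Endothelial cells were sorted at P17 as CD31+ and CD45- cells and sequenced, 1 library per mouse. There were 5 OSM mice (mice 1, 2, 5, 6 and 9) and 6 PBS mice (mice 3, 4, 7, 8, 10 and 11) from 3 litters; litter 1 held mice 1 to 4, litter 2 held mice 5 to 8, and litter 3 held mice 9 to 11 with a single OSM mouse. Each sample pooled both retinas of a mouse. Each litter was also a separate OIR run, so litter and run cannot be told apart. All of these mice went through the OIR model, so there is no group kept in room air to compare them with.

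Notch signaling works between neighboring cells. A ligand of the Delta or Jagged family on one cell binds a Notch receptor on the next, the receptor is cleaved, and its intracellular part moves to the nucleus, where it joins the DNA-binding protein RBPJ and switches on genes of the Hes and Hey families. In the growing retinal vessel front, Dll4 on the leading tip cell restrains sprouting of the cells behind it, Jag1 opposes Dll4, and the Fringe enzymes, Lfng among them, add sugars to the receptor that change which ligand it favors. Notch signaling is also known for arterial identity and for coverage of vessels by mural cells.

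The libraries held between 26697990 and 56033479 counted reads. Summed over 8 general endothelial markers, the level was 10867 to 14243 CPM (reads scaled to a common library size) in the 11 mice, and all 8 had reads in every mouse. Markers of leukocytes summed to between 0.402 and 81.1 CPM and of astrocytes to at most 6.91 CPM. The 8 Müller glia markers summed to 1726 to 2197 CPM, most of it from Vim, Apoe and Glul, which other cells also express. Of the rest, Rlbp1 had at most 48.2 CPM and Aqp4, read in 2 mice, at most 4.99 CPM. Dkk3 reached 69.0 CPM and Slc1a3 28.4 CPM, both in OSM mouse 2, and Sox9 had 6.80 to 30.2 CPM over the mice. The 8 rod markers were more uneven, from 158 to 4387 CPM, with the highest value in OSM mouse 5. Mural cell markers (10 genes of pericytes and smooth muscle) summed to 414 to 876 CPM in the OSM mice and to 328 to 1794 CPM in the PBS mice. All 10 had a lower fitted level in OSM mice, as did 8795 of the 17050 genes tested. In edgeR 2 of the 10 had an unadjusted p under 0.05, beside 4.96% of all genes, and 0 an adjusted p under 0.05. Within litter 2 their direction was mixed, with log2 differences from −0.79 for Cspg4 to 1.35 for Abcc9. Erythroid and platelet markers summed to 359 to 1131 CPM in OSM mice and to 123 to 598 CPM in PBS mice. Of the 6 tested, 5 had a higher and 1 a lower fitted level in OSM mice. In edgeR 5 of the 6 had an unadjusted p under 0.05, beside 4.96% of all genes, and 0 an adjusted p under 0.05. In bulk samples such as these, fewer cells of a type and less RNA per cell cannot be told apart.

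To compare the genes with one another, CPM were divided by the length of all exon bases of the gene in kilobases; this level per length is called FPKM below. Dll4 had the highest mean, 82.2 ± 16.1 FPKM (SD, n = 11), followed by Hes1 with 52.9 ± 10.5, Jag2 with 38.1 ± 8.00 and Notch4 with 34.8 ± 7.91 FPKM. Nrarp and Jag1 lay together at 19.8 ± 2.92 and 19.8 ± 6.57 FPKM. Notch1 had 15.1 ± 4.11, Lfng 11.6 ± 3.89 and Hey1 7.70 ± 1.81 FPKM, and Hey2 was far below the rest at 0.628 ± 0.854 FPKM. Dll4 exceeded Hes1 in 11 of 11 mice and Notch4 exceeded Nrarp in 11 of 11 mice. The neighbors Jag2 and Notch4, Nrarp and Jag1, Jag1 and Notch1, and Notch1 and Lfng differed by less than the spread of their ratio over the mice. Of 16962 genes ranked in the same way, 97.7% had a lower level than Dll4, 93.7% a lower level than Notch4, and 32.9% a lower level than Hey2.

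**Figure D1:**
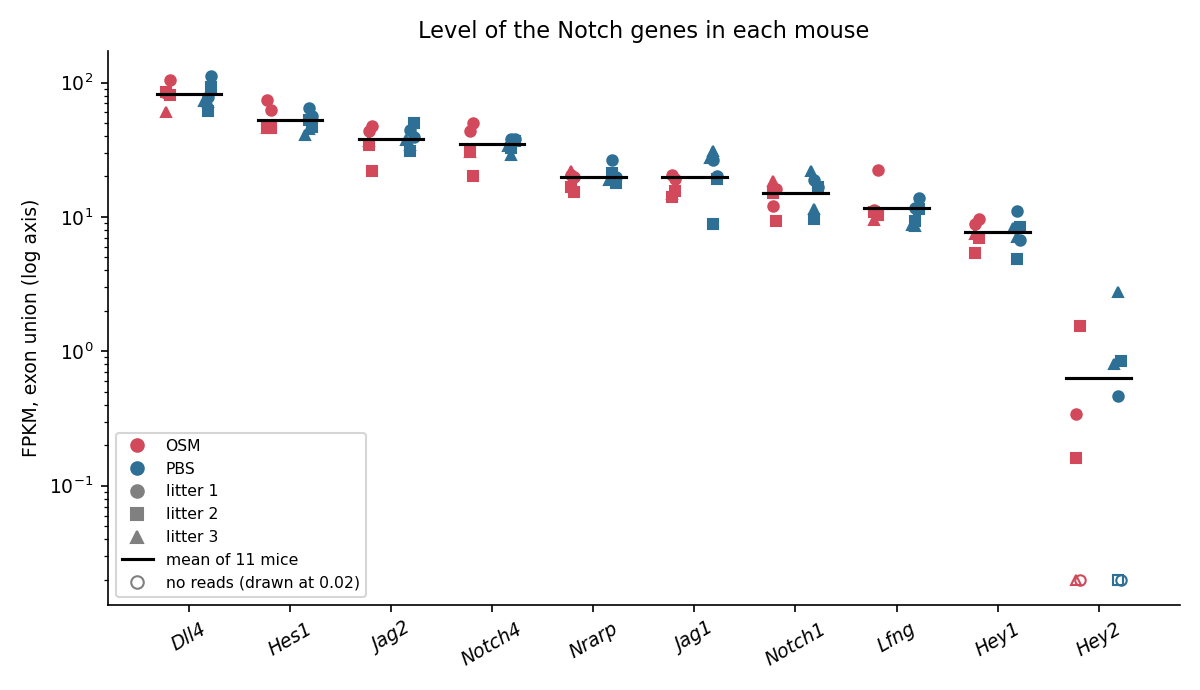
Level of each of the 10 genes in each mouse, in FPKM on a log axis; red points are OSM mice, blue points PBS mice, shapes mark the litter, the black line is the mean of 11 mice, and open points at the bottom are mice with no Hey2 reads. The genes run from Dll4 at a mean of 82.2 FPKM to Hey2 at 0.628 FPKM, and the OSM and PBS points of each gene cover overlapping ranges.

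The order at the top and the place of Nrarp depend on the length used. With the length of the canonical transcript alone, Hes1 had 117 FPKM and Dll4 84.5 FPKM. Of the exon bases of Nrarp, 86.5% also lie in exons of the antisense genes Gm13387 and Gm38287; with the bases shared with no other gene, the mean of Nrarp was 146 FPKM, the highest of the 10. Gm13387 had 148 and 194 reads in mice 10 and 11, 1 read in mouse 4 and none elsewhere. Exons of Dll4 (15.6% of bases, with the antisense gene Gm14207) and of Notch1 (14.0%, with 0610009E02Rik) are shared to a lesser degree. The library kit does not mark the strand, and the study states standard settings for its read counter featureCounts, under which a read in exons of more than 1 gene is not assigned, so the levels of these 3 genes per length are uncertain.

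The comparison of OSM with PBS asks whether Notch components in the endothelial cells differed 5 days after the injection. None of the 10 genes passed the test: 0 of 10 had an adjusted p under 0.05 in edgeR's quasi-likelihood test with litter as a term, where the background over 17050 genes was also 0%. At an unadjusted p under 0.05, 0 of 10 members stood beside 4.96% of all genes (846 genes). Fitted levels were higher in OSM mice for 2 members (Lfng and Hes1) and lower for 8, and the median of the 10 log2 fold changes was −0.10, against −0.014 over all genes tested. For none of the 10 did the OSM and PBS mice separate without overlap, a pattern seen in 0.405% of all genes. DESeq2 with litter called 168 of 22014 genes (0.763%) and 0 of the 10 members, of which 0 had an unadjusted p under 0.05, and edgeR without the filter on low counts called 65 of 28940 genes (0.225%) and 0 members. Since all 10 mural markers had a lower fitted level in OSM mice, though none was called, their summed level was also entered as a covariate. The log2 fold change was then −0.36 for Notch1, −0.21 for Notch4, −0.071 for Dll4, −0.31 for Jag1 and −0.37 for Jag2. It was 0.092 for Lfng, 0.078 for Hes1, −0.15 for Hey1, −0.94 for Hey2 and −0.14 for Nrarp. In this edgeR fit 0 of 10 members were again called, as were 0 of all 17050 genes. At an unadjusted p under 0.05 there was 1 member, Jag2, beside 880 of the 17050 genes. The 95% intervals of the fold changes show how large a difference these mice could still hold. The narrowest spanned from 0.910-fold to 1.204-fold for Hes1 and from 0.802-fold to 1.21-fold for Dll4. Wider ones ran from 0.580-fold to 1.14-fold for Jag1 and from 0.661-fold to 1.27-fold for Notch1. Those of Hey1 and Lfng ran from 0.722-fold to 1.33-fold and from 0.834-fold to 1.57-fold. For Hey2 the interval spanned from 0.0220-fold to 22.6-fold.

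**Figure D2:**
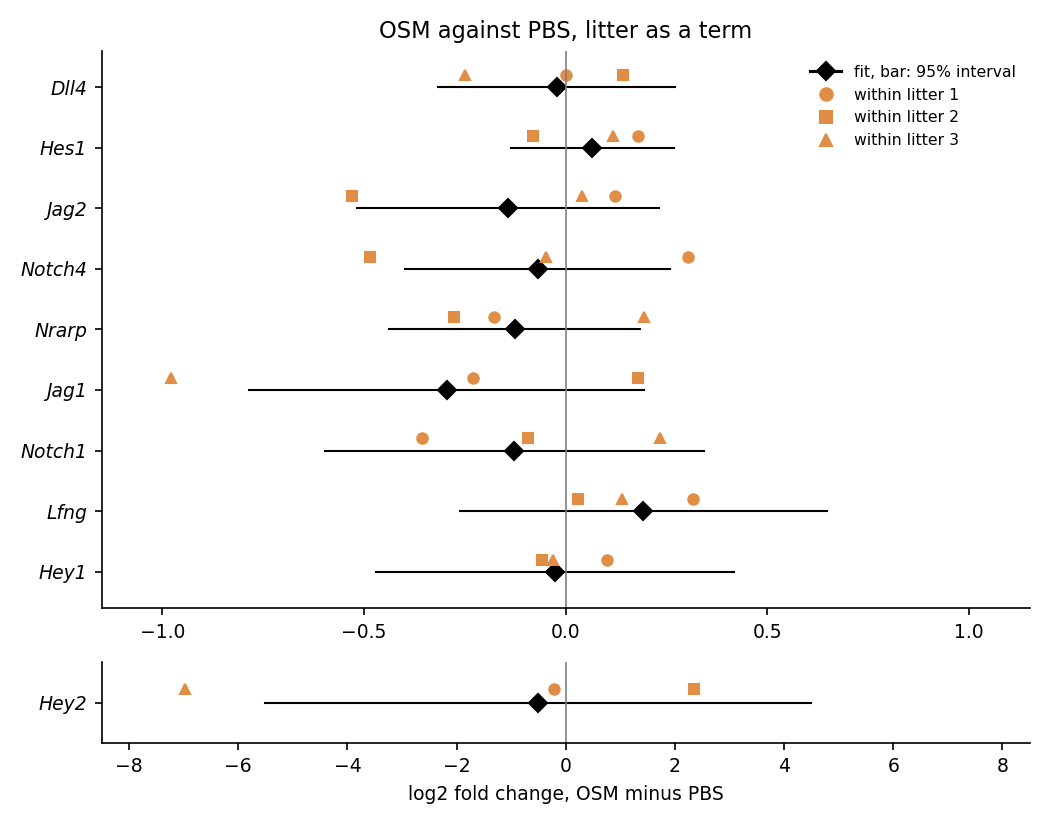
log2 fold change of each gene, OSM minus PBS (horizontal axis; Hey2 has its own, wider axis); black diamonds are the fit with litter as a term with the 95% interval as a bar, and orange points are the difference of mean log2 CPM within each litter. Every interval crosses 0, and Lfng is the gene whose within-litter differences were all above 0.

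The receptor Notch1 (ENSMUSG00000026923) lies on chromosome 2 from 26347915 to 26406675, minus strand, in the mouse build GRCm39, which holds for all positions given here. It is the main Notch receptor of the endothelium. OSM mice 1, 2, 5, 6 and 9 had 11.99, 16.1, 15.1, 9.32 and 18.7 FPKM, and the PBS mice had between 9.57 and 22.0 FPKM with a median of 16.7. Of the 5 OSM mice, 4 fell inside the PBS range, and mouse 6 lay below it. OSM and PBS mice differed by −0.13 on the log2 scale (SE 0.21), with an adjusted p of 1 in edgeR as for each of the 10, and within litters 1, 2 and 3 the difference was −0.36, −0.09 and 0.23 on the log2 scale.

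Notch4 (ENSMUSG00000015468, chromosome 17, 34783220 to 34807477, plus strand) is a receptor expressed mostly in endothelium. The OSM mice had 43.6, 50.1, 30.6, 20.1 and 30.4 FPKM, and the PBS mice 29.1 to 38.0 FPKM with a median of 35.4. The OSM values were more scattered than the PBS values (SD 11.9 and 3.48 FPKM), since both OSM mice of litter 1 lay above all PBS mice and mouse 6 of litter 2 below them. On the log2 scale the fitted difference was −0.07 (SE 0.15), made up of 0.30 in litter 1, −0.49 in litter 2 and −0.05 in litter 3. The log2 ratio of Notch4 to Notch1, taken in FPKM, was 1.27 ± 0.473 (SD, n = 5) in OSM mice and 1.18 ± 0.380 (SD, n = 6) in PBS mice. The difference within litters was 0.028, with p = 0.880 (adjusted 0.880 over 3 ratios) in a two-sided exact permutation test over the 108 splits within litters.

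Dll4 (ENSMUSG00000027314, chromosome 2, 119156170 to 119166443, plus strand), the ligand of tip cells and arteries, was the most abundant member. OSM mice had 83.6, 105, 85.5, 81.1 and 60.8 FPKM, and PBS mice 61.8 to 112 FPKM with a median of 75.7. The groups overlapped almost completely, with mouse 9 alone just under the lowest PBS mouse. Dll4 differed by −0.02 on the log2 scale (SE 0.13), and the differences within litters were 0.0016, 0.14 and −0.25.

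Jag1 (ENSMUSG00000027276, chromosome 2, 136923373 to 136958693, minus strand), the ligand that opposes Dll4 in sprouting and is also used between endothelium and mural cells, showed the most negative fitted difference among the 9 members other than Hey2. OSM mice had 20.4, 19.0, 14.1, 15.5 and 14.8 FPKM. PBS mice had 8.79 to 31.2 FPKM with a median of 23.3. All 5 OSM mice lay within the wide PBS range, and 1 PBS mouse, mouse 7, was lower than any OSM mouse. Its log2 fold change in edgeR was −0.30 with an SE of 0.22 (adjusted p of 1, and 0.919 in DESeq2), with −0.23 in litter 1, 0.18 in litter 2 and −0.98 in litter 3, where the OSM side is 1 mouse. It was −0.49 without mouse 7 and −0.53 without litter 2, where its unadjusted p fell under 0.05 and its adjusted p was 0.979 and 0.804 in edgeR, and it was −0.088 without litter 3 and also without mouse 9 alone.

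Jag2 (ENSMUSG00000002799, chromosome 12, 112871421 to 112893437, minus strand) was more abundant than Jag1 per length. OSM mice had 43.4, 47.1, 34.2, 21.9 and 36.7 FPKM, and PBS mice 31.1 to 50.2 FPKM with a median of 38.1. Mouse 6 alone fell below the PBS range. Jag2 differed by −0.14 on the log2 scale (SE 0.17), with −0.53 in litter 2 and 0.12 and 0.041 in litters 1 and 3.

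The balance of the opposing ligands was compared as the log2 ratio of Dll4 to Jag1 in FPKM. It was 2.30 ± 0.260 (SD, n = 5) in OSM mice and 1.95 ± 0.651 (SD, n = 6) in PBS mice. The difference within litters was 0.25, with p = 0.296 in the two-sided exact permutation test and an adjusted p of 0.880 over the 3 ratios tested. It was 0.081 without mouse 9 and 0.12 without mouse 3. Litters 1 and 3 gave 0.23 and 0.73 and litter 2 gave −0.039, so the direction was not shared by all litters.

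Lfng (ENSMUSG00000029570, chromosome 5, 140593075 to 140601300, plus strand) encodes Lunatic fringe. The OSM mice had 11.2, 22.4, 10.9, 10.2 and 9.53 FPKM, and PBS mice 8.52 to 13.9 FPKM with a median of 10.4. Mouse 2 stood far above all others, and the remaining OSM mice lay inside the PBS range. For Lfng the fitted log2 difference was 0.19 (SE 0.21), with 0.32, 0.031 and 0.14 in litters 1, 2 and 3. Without mouse 2 it was −0.0022.

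The target genes come next, and their start regions are shown first because RBPJ, the nuclear partner of Notch, binds DNA with the core letters TGGGAA. The 250 bases before the start of each canonical transcript were searched on both strands. Hes1 and Lfng each held 2 matches and Hey1 and Hey2 1 match each, while the windows of Notch1, Notch4, Dll4, Jag1, Jag2 and Nrarp held none. Of 21770 protein-coding promoters of the same length, 22.7% held at least 1 match and 3.1% held 2 or more. The longer form GTGGGAA, which contains the shorter one, was found in the same 4 genes and in 5.5% of all promoters. These matches describe the letters of the window and are not evidence of binding, and a window without them says nothing about RBPJ. The windows are Hes1 at chr16:29883877-29884126 (plus strand), Lfng at chr5:140592825-140593074 (plus strand) and Hey2 at chr10:30718829-30719078 (minus strand), together with 30 bases around the match of Hey1 at chr3:8732474-8732503 (minus strand), all of GRCm39. They are printed 5′ to 3′ on the strand of the gene, with matches to TGGGAA or its reverse complement in capitals.
Hes1: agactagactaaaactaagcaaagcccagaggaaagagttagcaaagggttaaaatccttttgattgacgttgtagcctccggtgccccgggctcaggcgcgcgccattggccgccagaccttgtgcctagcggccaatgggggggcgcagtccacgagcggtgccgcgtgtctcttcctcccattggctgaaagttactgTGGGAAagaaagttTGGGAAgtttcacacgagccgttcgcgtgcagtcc
Lfng: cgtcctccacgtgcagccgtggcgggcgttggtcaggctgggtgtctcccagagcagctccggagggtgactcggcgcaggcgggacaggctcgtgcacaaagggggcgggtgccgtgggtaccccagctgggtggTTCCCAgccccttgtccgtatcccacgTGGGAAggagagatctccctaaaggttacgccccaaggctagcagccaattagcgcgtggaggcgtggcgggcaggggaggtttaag
Hey2: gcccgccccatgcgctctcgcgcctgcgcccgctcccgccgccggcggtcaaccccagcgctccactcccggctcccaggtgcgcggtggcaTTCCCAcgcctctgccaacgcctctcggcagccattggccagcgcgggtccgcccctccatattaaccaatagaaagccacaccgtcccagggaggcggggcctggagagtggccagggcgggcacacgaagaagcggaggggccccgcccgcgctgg
Hey1: ggcgccggcactTTCCCAcggcccgcggcg
Positions are counted from the first base of the canonical transcript, so that −1 is the base before it. In Hes1 the pair of matches lay at −49 to −44 and −35 to −30, both on the strand of the gene. In Lfng they lay at −114 to −109 and −87 to −82, on opposite strands. The Hes1 window lies inside the annotated span of the gene, which starts at 29882134. The windows of Notch1 and Hey1 overlap exons of other transcripts of the same gene.

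Hes1 (ENSMUSG00000022528, chromosome 16, 29882134 to 29886643, plus strand) encodes a repressor of the basic helix-loop-helix family. OSM mice had 74.6, 62.6, 47.3, 46.2 and 46.1 FPKM, and PBS mice 40.4 to 64.6 FPKM with a median of 49.5. The 2 highest OSM values came from litter 1, and 4 of the 5 OSM mice lay inside the PBS range. Hes1 differed by 0.07 on the log2 scale (SE 0.09), the smallest SE of the 10, with 0.18, −0.08 and 0.12 within litters 1, 2 and 3.

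Hey1 (ENSMUSG00000040289, chromosome 3, 8726956 to 8732385, minus strand) encodes another such repressor and is a target of Notch in endothelium. OSM mice had 8.81, 9.66, 5.42, 6.93 and 7.48 FPKM. PBS mice had 4.83 to 11.1 FPKM with a median of 7.67. All OSM mice lay inside the PBS range. Hey1 differed by −0.03 on the log2 scale (SE 0.20), with 0.10, −0.06 and −0.03 within the litters. The log2 ratio of Hey1 to Hes1 in FPKM was −2.85 ± 0.232 (SD, n = 5) in OSM mice and −2.74 ± 0.433 (SD, n = 6) in PBS mice. It differed within litters by −0.057, with p = 0.769 (adjusted 0.880) in the two-sided exact permutation test.

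Hey2 (ENSMUSG00000019789, chromosome 10, 30708350 to 30718828, minus strand), a gene known for arterial identity, was the 1 member with no reads in some mice. OSM mice 1, 2, 5, 6 and 9 had 58, 0, 23, 217 and 0 reads, and PBS mice 3, 4, 7, 8, 10 and 11 had 60, 0, 0, 145, 134 and 429 reads. Both groups thus held mice with none and mice with over 100 reads, and the level was 0 to 1.54 FPKM in OSM mice and 0 to 2.74 FPKM in PBS mice. With an SE of 2.27 around a log2 fold change of −0.51, no direction could be read from Hey2. Its SD of log2 CPM over the mice was larger than that of 99.9% of the 8879 genes with a mean of at least 10 CPM, a level that Hey2 itself does not reach.

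Nrarp (ENSMUSG00000078202, chromosome 2, 25070770 to 25073351, plus strand) encodes a small inhibitor of Notch signaling that is itself a target gene. OSM mice had 20.5, 19.8, 16.8, 15.2 and 21.9 FPKM, and PBS mice 17.8 to 26.4 FPKM with a median of 19.7. Both OSM mice of litter 2 lay below all PBS mice and the other 3 within their range. The fitted log2 difference of Nrarp was −0.13 (SE 0.14), with −0.18, −0.28 and 0.19 in the 3 litters. It was the steadiest of the 10 over the mice: 11.2% of the 8879 genes had a lower SD of log2 CPM.

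For Hes1 the mice of litter 1 stood above the rest. Its mean was 64.6 FPKM in litter 1, 48.1 in litter 2 and 43.8 in litter 3, and each of the 4 mice of litter 1 lay above each mouse of the other litters. Notch4 had 42.4, 30.1 and 31.1 FPKM, Dll4 94.7, 80.2 and 68.5 FPKM, and Lfng 14.8, 10.5 and 8.94 FPKM in litters 1, 2 and 3. Jag1 and Notch1 had their lowest mean in litter 2, at 14.4 and 12.7 FPKM, and their highest in litter 3, at 24.5 and 17.4 FPKM.

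In edgeR's test for any difference between litters, with treatment as a term, 0 of 10 members were called, beside 0.0176% of all genes (3 of 17050). At an unadjusted p under 0.05 there were 2 of 10 members, Hes1 and Notch4, beside 10.3% of all genes. The lowest adjusted p was that of Hes1, 0.135 in edgeR, whereas DESeq2's likelihood ratio test called it alone among the members with an adjusted p of 3.74e-05, beside 7.11% of all genes it tested (995 of 13985). Without the filter on low counts, edgeR called Notch4 (adjusted p = 0.0353) and Jag1 (0.0461) and not Hes1 (0.0797), beside 2.16% of the 28940 genes, so the call for a litter difference depended on the tool and the filter.

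**Figure D3:**
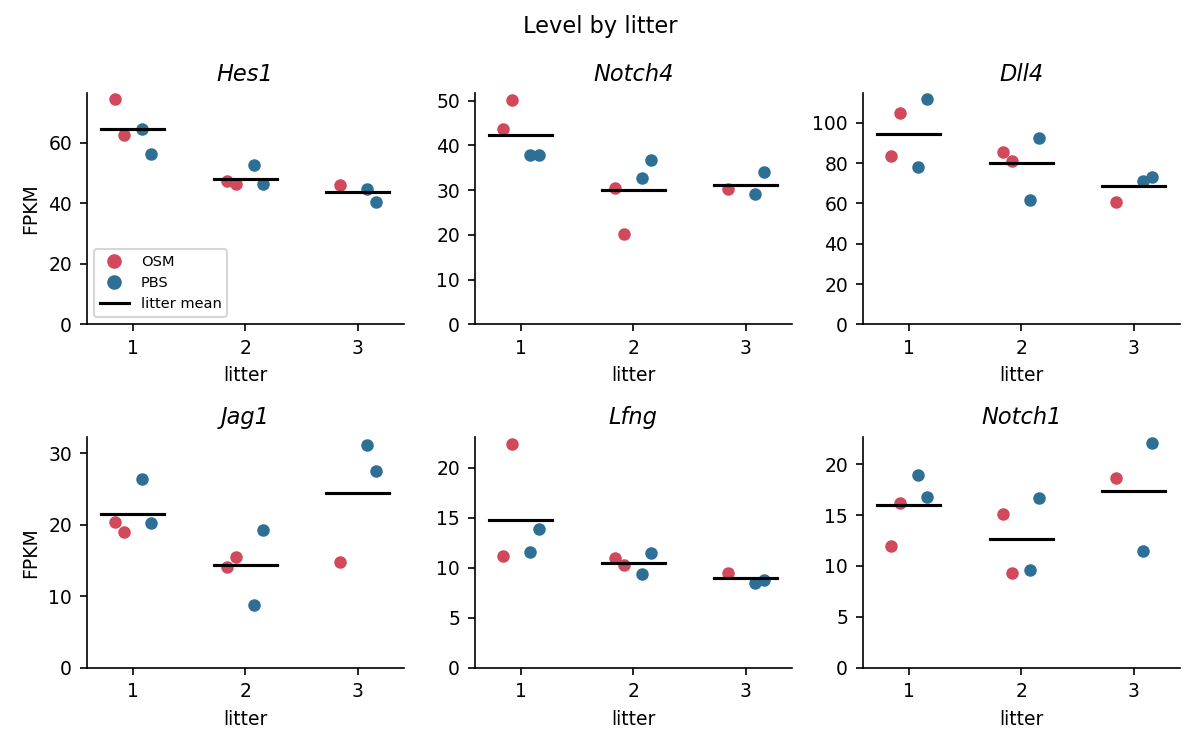
Level in FPKM (vertical axis, from 0) of 6 genes in each mouse by litter; red points are OSM mice, blue points PBS mice and black lines litter means. Hes1 runs from a mean of 64.6 FPKM in litter 1 to 43.8 FPKM in litter 3 over both treatments together, and Lfng shows the high value of mouse 2.

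Whether the OSM difference itself varied between litters was tested as an interaction of treatment and litter. No member was called, 0 of 10, beside 0% of the 17050 genes. At an unadjusted p under 0.05 the count was 0 of 10 members beside 6.42% of all genes. The lowest adjusted p in this edgeR test was 0.773, for Notch4, whose difference was 0.30 in litter 1 and −0.49 in litter 2.

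The members were next compared with one another over the 11 mice, as log2 CPM with the litter means removed. Of the 45 pairs, 29 had a positive and 16 a negative r, with a median of 0.15. After adjustment over the 45 pairs, none passed the threshold by either measure, and 5 had an unadjusted permutation p under 0.05. The highest r was that of Jag1 and Hey2, r = 0.89 (permutation p = 0.00289, adjusted 0.130) and rho = 0.82 (permutation p = 0.00694, adjusted 0.312). Hey2 had no reads in some mice, mice 7 and 9 among them, and these shared its lowest log2 CPM. Without mice 7 and 9, farthest from the median of Jag1, r was 0.73. Both genes were highest in mouse 11, which also had the highest sum of mural markers, 1794 CPM; the part of mural cells in this relation was not tested.

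Notch4 and Jag2 had r = 0.86 (permutation p = 0.0205, adjusted 0.231) and rho = 0.74 (permutation p = 0.0313, adjusted 0.430), and r was 0.55 without mice 6 and 8. Dll4 had a negative r with 2 target genes within litters. With Hes1 it had r = −0.76 (permutation p = 0.0159, adjusted 0.231) and rho = −0.73 (permutation p = 0.0272, adjusted 0.430), but r was 0.37 when the litter means were kept. With Nrarp it had r = −0.77 (permutation p = 0.0185, adjusted 0.231) and rho = −0.63 (permutation p = 0.0923, adjusted 0.430), and −0.40 without mice 3 and 7. Notch1 and Jag2 had r = 0.61 (permutation p = 0.0298, adjusted 0.268) and rho = 0.72 (permutation p = 0.0422, adjusted 0.430), and r was 0.52 without mice 6 and 11.

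**Figure D4:**
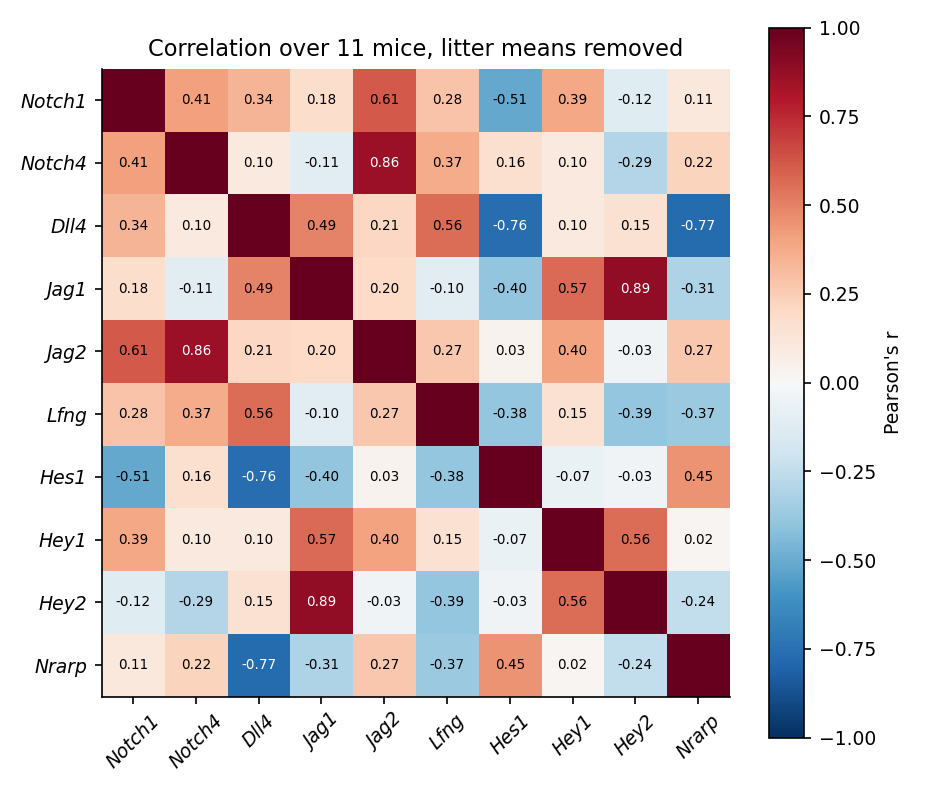
Pearson's r between each pair of the 10 genes over 11 mice, from log2 CPM with litter means removed (color scale from −1 to 1, with each value printed). Jag1 with Hey2 (0.89) and Notch4 with Jag2 (0.86) are the highest, Dll4 with Nrarp (−0.77) and with Hes1 (−0.76) the lowest, and no pair passed adjustment over 45 pairs.

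Across 8877 genes that have a symbol and a mean of at least 10 CPM, other members among them, the gene whose litter-centered log2 CPM ran most like Notch4 over the 11 mice was Arf3 (r = 0.97), a small GTPase, and Nos3, the endothelial nitric oxide synthase, was the next (r = 0.97). Nos3 was also the second most like Jag2 (r = 0.93). Tars2 came next for Notch4 (r = 0.97), and Arhgap27 and Nck2 stood on either side of Nos3 for Jag2 (r = 0.94 and 0.92). For Dll4 the third was Flt1, a VEGF receptor (r = 0.95), after Bcap31 and Csnk1d. For Lfng the third was Nrp1, a co-receptor of VEGF (r = 0.86), after E2f2 and Tmem35b. The remaining members had Skic2, Slc25a25 and St3gal2 (Notch1, r of 0.92 to 0.94), Plekha3, C1galt1 and Rai14 (Jag1, 0.94 to 0.96), D8Ertd738e, 3110040N11Rik and Actl6a (Hes1, 0.93 to 0.97), Mtpap, Llgl1 and Slc39a11 (Hey1, 0.91 to 0.96), Tnfrsf10b, Rnf144a and B4galt1 (Hey2, 0.90 to 0.91), and Pi4k2a, Cuta and Commd9 (Nrarp, 0.91 to 0.95). These are the extremes of a search over many genes in few mice and are given as a description with no p.

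The other genes of the pathway were taken as a list of 46, of which 45 passed the filter; the ligand gene Dll3, with at most 4 reads in a mouse, did not. Of the 45, 19 had a higher and 26 a lower fitted level in OSM mice; their median log2 difference was −0.07, and 0 passed the adjusted threshold in edgeR. At an unadjusted p under 0.05 there were 5 of 45, beside 4.96% of all genes tested. DESeq2 called 2 of the list, Itch (adjusted p = 0.0114) and Neurl1a (adjusted p = 0.0266), beside 0.763% of all genes it tested. By role, 3 of 10 genes of receptor cleavage had a higher fitted level and 7 a lower one, as did 3 and 7 of the 10 genes of the nuclear complex, while 8 of 12 genes of ubiquitination and trafficking had a higher one.

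Itch encodes a ubiquitin ligase that acts on Notch among other proteins. OSM mice had 90.8, 127, 128, 107 and 106 CPM, and PBS mice ranged from 63.6 to 91.5 CPM. Mouse 1 alone overlapped the PBS mice, just under the highest of them. OSM mice were higher by a fitted 0.56 on the log2 scale, with an SE of 0.13 and an adjusted p of 0.955 in edgeR, and the difference was above 0 in 3 of 3 litters at 0.38, 0.78 and 0.48. Itch was thus called by DESeq2 and not by edgeR.

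Adam17 encodes a protease that can cut Notch receptors outside the cell. OSM mice had 121, 165, 74.1, 114 and 86.6 CPM, and PBS mice 91.8 to 191 CPM. The groups overlapped in part, with 2 OSM mice below the PBS range. Adam17 had −0.40 on the log2 scale, with an SE of 0.17 and an adjusted p of 0.955 in edgeR, and −0.25, −0.54 and −0.42 in the litters.

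Dtx4 belongs to the Deltex ubiquitin ligases. OSM mice had 15.6, 1.97, 3.91, 4.71 and 5.29 CPM, and PBS mice 6.16 to 27.3 CPM, so that only mouse 1 reached into the PBS range. Dtx4 had −1.46 on the log2 scale, with an SE of 0.63 and an adjusted p of 0.955 in edgeR, and −0.59, −2.41 and −2.10 in the litters. Neurl1a and Dtx1 rested on few reads: Neurl1a had 110, 77, 11, 70 and 17 reads in OSM mice and 16, 5, 5, 0, 0 and 0 in PBS mice, and Dtx1 had 62, 19, 0, 0 and 30 reads in OSM mice and 1 read in 1 PBS mouse.

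Notch3 is the Notch receptor of mural cells. OSM mice had 5.598, 9.77, 6.09, 7.05 and 0.214 CPM, and PBS mice 3.27 to 24.1 CPM. Notch3 had −1.51 on the log2 scale, with an SE of 0.85 and an adjusted p of 0.970 in edgeR, and −1.09, −0.15 and −6.37 in the litters. The median over the 10 mural markers was −0.74 on the same scale; their part in the value of Notch3 was not tested. Notch2 had 0.21 (SE 0.46) and the target gene Heyl, also known from mural cells, 0.012 (SE 0.41).

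Several components of the cascade had small standard errors. Mfng, the Fringe with the highest CPM, had a log2 fold change of −0.03 (SE 0.12), with 0.11, −0.44 and 0.33 within the litters. The metalloprotease gene Adam10 had −0.03 (SE 0.12), and Ncstn, of the gamma-secretase, 0.15 (SE 0.10). Psenen, also of gamma-secretase, had the highest value among the genes of receptor cleavage, 0.18 (SE 0.16). The sugar transferase genes Pofut1 and Poglut1 bounded the genes of receptor glycosylation at −0.27 (SE 0.25) and 0.19 (SE 0.22), and Maml1, a coactivator of the Notch complex, was the lowest of the nuclear genes at −0.33 (SE 0.35). Rbpj itself had 6.77 to 20.6 CPM over the 11 mice, and the highest value of the nuclear genes, 0.17 (SE 0.38). Genes of few reads had wide errors: Aph1b had −0.51 (SE 3.10), the largest SE of the 45, with at most 232 reads in a mouse, Aph1c was at −3.85 (SE 1.99), with at most 45, and Hes5 at −2.15 (SE 2.68), with at most 37. The non-canonical ligand genes Dlk1 and Dlk2, with at most 396 and 91 reads, had −1.49 (SE 1.19) and 1.78 (SE 2.24).

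**Figure D5:**
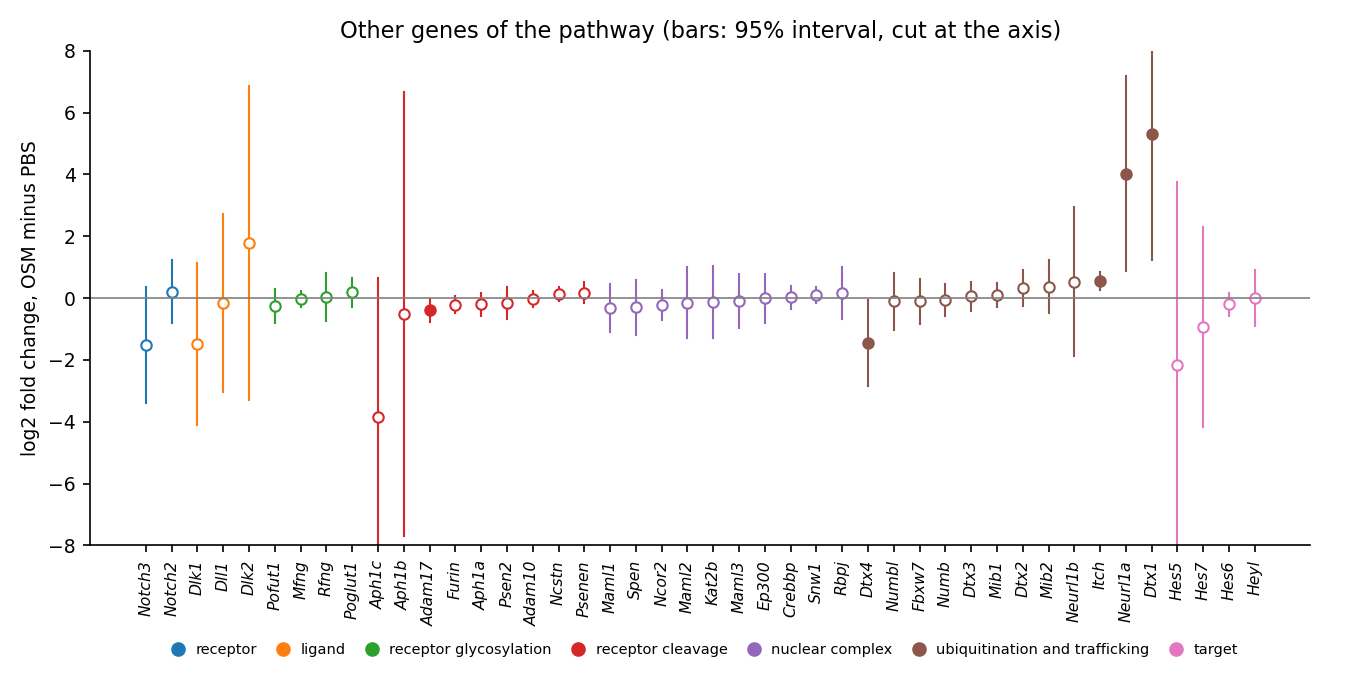
log2 fold change, OSM minus PBS (vertical axis), of 44 of the 45 other genes of the Notch pathway, colored by role, with 95% intervals as bars that stop at the axis limits; filled points have an unadjusted p under 0.05. The 5 filled points are Adam17, Dtx4, Itch, Neurl1a and Dtx1, and most genes with short bars lie close to 0.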

How the data were processed

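The authors sorted CD31+ and CD45- cells from the pooled retinas of each mouse, made libraries from low-input RNA with SMARTer and Nextera XT kits, aligned reads to GRCm39 with STAR, and deposited raw read counts per gene from featureCounts, 1 table per mouse. Here the counts were tested as deposited in edgeR 4.0.16 (R 4.3.3; TMM scaling, filterByExpr with a count minimum of 10, robust quasi-likelihood fits, Benjamini-Hochberg adjustment over 17050 genes, threshold 0.05), with litter and treatment as terms; litter differences and the treatment by litter interaction were tested in the same way. SEs are the absolute log2 fold change divided by the square root of F. DESeq2 1.42.0 with litter was an alternative, others being no litter term, DESeq2 size factors, no or a stricter filter, no robust estimation, thinning to the smallest library, leaving out each mouse or litter, and marker levels as covariates (rod and erythroid markers were added after seeing the data, as were the other gene lengths). FPKM here are TMM-scaled CPM per kilobase of exon union (GENCODE vM39; 610 of 55359 genes had no entry there). Log2 CPM used a prior count of 2. In data simulated for OSM against PBS (15979 genes), edgeR called 57 of 100 genes changed 2-fold, 90 of 100 changed 4-fold, and 7 genes that had not been changed. The changed genes all had a mean of at least 10 CPM, which Hey2 does not reach, and no litter differences were simulated.

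Ratios were tested by exact permutation within litters and pairs by permutation of mice within litters (3456 permutations, smallest possible p 0.000289). Named were all members, pathway genes with an unadjusted p under 0.05, the extremes of each role, and for each member the 3 most similar genes. Mfng, Adam10 and Ncstn were named after their values were seen. The value of 1 gene of the pathway list is not reported here, and the gene is left out of the plot of that list; it stays in the counts. The members and the gene lists were chosen with earlier results of these data known. Treatment came from the sample labels and litter from the design text of the series; whether mice of a litter shared a day of sorting is not given in the sources used here. The headers of the tables of mice 10 and 11 carry mouse numbers higher by 1; both are PBS mice of litter 3. Promoter windows came from the same genome build. The libraries held 26697990 or more counted reads, and the 9 members other than Hey2 had at least 688 reads in every mouse.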

Additional observations from a re-analysis of the deposited data

Results flagged for a closer look

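In 3 of 20 groups looked at (10 genes in OSM and in PBS mice), 1 mouse stood far from the other mice of its group, where chance gives about 5% of groups. Lfng was 22.4 FPKM in OSM mouse 2, and the other OSM mice had 9.53 to 11.2 FPKM. Hey2 was 1.54 FPKM in OSM mouse 6, with 217 reads, and 2.74 FPKM in PBS mouse 11, with 429 reads. The cause was not tested in any of them.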

How the results depend on the processing

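Over 25 alternatives, 224 of 249 log2 fold changes of members kept their direction, 25 turned it, and no member was called. Most of these alternatives called 0 of all genes tested, so the absence of calls there is not particular to the members. The exceptions were DESeq2 with litter (168 of 22014 genes) and edgeR without the filter on low counts (65 of 28940). Without the litter term Notch4 was 0.0089 and Dll4 0.030. With the erythroid and platelet marker level as a covariate (chosen after seeing the data), Notch1 was 0.072, Notch4 0.039, Dll4 0.28 and Hes1 −0.096. Leaving out 1 mouse or litter gave −0.29 to 0.16 for Notch4, −0.12 to 0.056 for Dll4, −0.30 to 0.085 for Jag2, −0.0022 to 0.29 for Lfng, −0.0039 to 0.15 for Hes1, −0.13 to 0.11 for Hey1 and −3.12 to 0.90 for Hey2. Notch1 (−0.24 to −0.00018), Jag1 (−0.53 to −0.088) and Nrarp (−0.24 to −0.040) kept their direction there. The ratio of Dll4 to Jag1 ran from 0.081 to 0.36, that of Notch4 to Notch1 from −0.091 to 0.17 and that of Hey1 to Hes1 from −0.20 to 0.066 when 1 mouse was left out. DESeq2 called 2 pathway genes between OSM and PBS and 1 member between litters, and edgeR without the filter on low counts called 2 members between litters; the cause was not tested. The r of Dll4 and Hes1 was 0.37 with litter means kept. Hey2 had 0 reads in mice of both groups, mouse 9 with the deepest library among them; the other 9 members had at least 688 reads in every mouse.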

Other observations

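Genes of vessel identity were measured in the same mice. Of 8 arterial genes, 2 had a higher and 6 a lower fitted level in OSM mice, with a median log2 fold change of −0.11; the extremes were Gja4, a connexin of arteries, at −0.35 and the transcription factor gene Sox17 at 0.14. Of 4 venous genes, 2 were higher and 2 lower, from Ephb4 at −0.20 to the apelin receptor gene Aplnr at 0.23. Of 9 genes known from tip cells, 1 was higher and 8 lower, with a median of −0.19, from Esm1 at −1.21 to Kcne3 at 0.0042. None of these genes passed the adjusted threshold in edgeR, and 1 of each list had an unadjusted p under 0.05, beside 4.96% of all genes tested. They were Gja4, Aplnr and, of the tip cell genes, Cxcr4 at −0.61 and not Esm1. Within litters Esm1 was −1.66, 0.12 and −2.10, so that litter 2 did not share the direction of the other two.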
